A study of Mus musculus with 12 samples.

Results

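The genes described here are 44 human interferon-stimulated genes, measured in tumors grown from the pancreatic cancer lines AsPC-1 and BxPC-3. They were chosen by identifier from a list of 45 that the type I interferon response is known to induce, and the symbols used here came with that list. All 45 identifiers had a row in both deposited tables, none was absent, and 1 is not reported here. The tables held 30832 genes in all, of which 23445 were in both. AsPC-1 and BxPC-3 are established cell lines of human pancreatic ductal adenocarcinoma, and the tumors were orthotopic grafts, placed in the pancreas of mice. Arsenic trioxide (ATO) is an arsenic compound used as a drug against acute promyelocytic leukemia. There were 3 libraries of AsPC-1 tumors with ATO and 3 of AsPC-1 controls, and 3 of BxPC-3 tumors with ATO and 3 labelled as BxPC-3 controls. The labels give the genotype WT to every library. Not given in the sources used here are the strain, age and sex of the mice, their remaining host cells, the amount and timing of ATO, the treatment of controls, and any pooling of tumors. The labels also do not tie the libraries of a group to different mice, and the p-values below describe variation among libraries that may be technical.

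Cells make interferons when they sense viral nucleic acid or nucleic acid in the wrong place. Interferons bind receptors at the cell surface, and a transcription factor complex that holds STAT2 and IRF9 then enters the nucleus and switches on a shared program of genes. The program includes sensors that raise the alarm further, proteins that block viral entry, translation and budding, and brakes that end the response. Many tumor cell lines keep part of this program on without infection.

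The values are FPKM, reads of a gene per length of the gene and scaled by a constant of the library. The reads recovered from them summed to between 11219572 and 19306885 in the 11 libraries used. The library labelled BxPC-3 control 3 was left out, as the rule that came with the list of genes asks. It lay within the range of the 6 AsPC-1 libraries for 39 of the 44 genes. For 7 it lay within the range of the 5 other BxPC-3 libraries. Its median absolute difference on the log2(FPKM + 1) scale was 0.128 from the AsPC-1 mean and 1.18 from the mean of the other BxPC-3 libraries. These figures cover the same 44 genes that are compared below, and the figures over all genes are not given here. With that library left out, BxPC-3 controls had 2 libraries. Whether the tables of the lines were normalized separately is not stated, so differences between lines are also given after a common rescaling. These are bulk samples, in which fewer cells of a type and less RNA per cell cannot be told apart. The sources used here do not say how reads from mouse cells were treated or whether counting used strand, so reads of overlapping antisense genes cannot be told apart. Markers of pancreatic cancer cells and of other cell types were not analysed here, because the files do not pair identifiers with names.

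Transcripts of these genes were measured in both lines, at a higher summed level in AsPC-1. The summed level of the 44 genes was 1132, 1057 and 916 FPKM in AsPC-1 ATO libraries and 995, 920 and 909 FPKM in AsPC-1 controls. It was 434, 432 and 478 FPKM in BxPC-3 ATO libraries and 414 and 430 FPKM in BxPC-3 controls. Every AsPC-1 library was above every BxPC-3 library in this sum. These sums are of values as deposited, whose scaling against recovered reads differed between groups and lines. In AsPC-1, the genes with the highest mean over 6 libraries were IFITM3 with 125 FPKM, IFITM1 with 118 FPKM and IFITM2 with 91.5 FPKM. Those with the lowest were HERC5 with 1.21 FPKM, MX2 with 0.957 FPKM and TRIM22 with 0.365 FPKM. In BxPC-3, the highest means over 5 libraries were those of BST2 with 61.9 FPKM, LGALS3BP with 51 FPKM and IFI44 with 42.1 FPKM. The lowest were CMPK2 with 0.213 FPKM, IRF7 with 0.198 FPKM and RSAD2 with 0.0559 FPKM. No gene was among the 3 highest of both lines or among the 3 lowest of both.

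**Figure D1:**
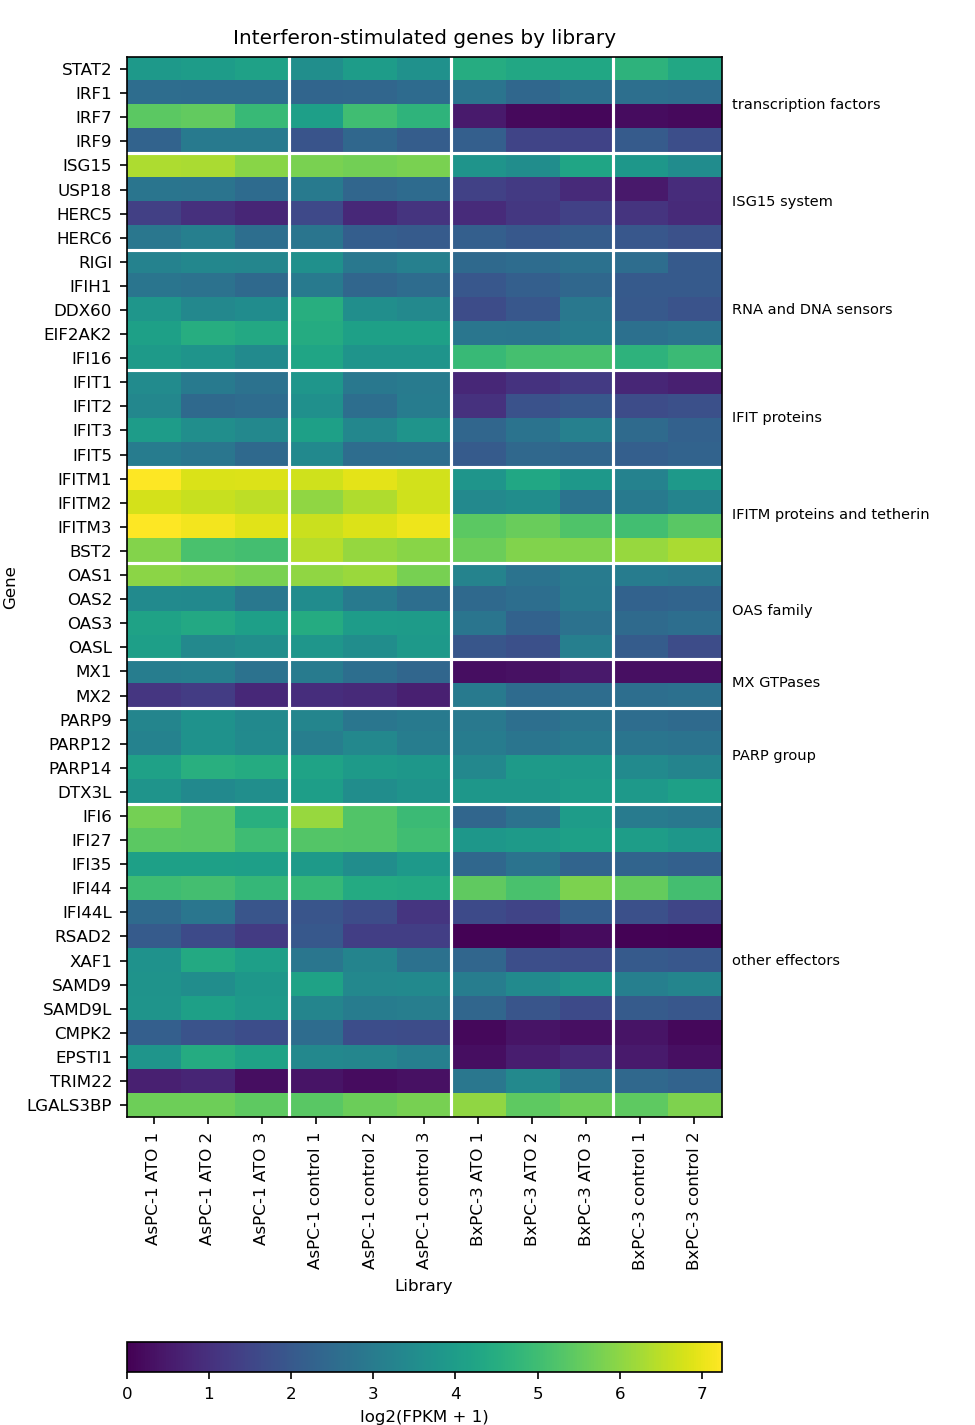
Each row is 1 of the 44 genes, grouped by role, and each column 1 of the 11 libraries, with color giving log2(FPKM + 1). IFITM1, IFITM2, IFITM3 and OAS1 are bright in all 6 AsPC-1 columns, IRF7, MX1, CMPK2, RSAD2 and EPSTI1 are dark in all 5 BxPC-3 columns, and MX2 and TRIM22 show the opposite order.

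AsPC-1 tumors had higher levels of most of these genes than BxPC-3 tumors, with and without ATO. In 1 limma model of the 11 libraries on log2(FPKM + 1), with Benjamini-Hochberg adjustment over all 16600 genes tested and a threshold of 0.05, all 44 genes were tested. Under ATO, 30 of the 44 genes, or 68.2%, were higher in AsPC-1, where 35.2% of all genes tested were, and 4, or 9.09%, were lower, where 24.8% were. In controls, 28, or 63.6%, were higher in AsPC-1, where 23.5% of all genes tested were, and 5, or 11.4%, were lower, where 21.8% were. Across the 44 genes the median log2 fold change was 1.10 under ATO and 1.02 in controls, and over all genes tested it was 0.17 and 0.03. Of the genes called, 27 were higher in AsPC-1 in both comparisons, 4 were lower in both, and 0 were called in opposite directions. How many of all 16600 genes were called in both comparisons is not given here, so this agreement is not read as particular to the 44 genes. Every AsPC-1 library was above every BxPC-3 library for 26 of the 44 genes, against 23.7% of all genes tested, and below for 4, against 20.1%.

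The common rescalings left these counts nearly where they were. After quantile normalization, 34 of the 44 genes were called in either direction under ATO and 29 in controls. Over all 16600 genes tested, 10131 and 7793 were called. Voom, run on the recovered reads, called 34 and 32 of the 44, and 10937 and 8788 of all 17319 genes. The median of all genes under ATO was -0.03 after quantile normalization and -0.05 with voom, and that of the 44 genes 0.91 and 1.11. Among all genes called under ATO, the share higher in AsPC-1 was 58.7% as deposited, 47.6% after quantile normalization and 47.9% with voom. When the library labelled BxPC-3 control 3 was kept among the controls, 0 of the 44 genes passed in the control comparison, with a median log2 fold change of 0.62. The share of all genes that passed in that fit is not given here, so this loss is not read as particular to the 44 genes.

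Most calls between the lines held when any 1 library was left out, 31 of 34 under ATO and 25 of 33 in controls. The others were lost when at least 1 library was left out. The share of all genes whose calls held in the same way is not given here. In controls RIGI was lost without BxPC-3 control 2, IFIT2 without either BxPC-3 control, and XAF1 without either BxPC-3 control or without AsPC-1 control 2, with limma adjusted p of up to 0.0891. OAS2 and PARP14 were lost without either BxPC-3 control, AsPC-1 control 1 or AsPC-1 control 2, and IFIH1 and PARP9 without either BxPC-3 control, AsPC-1 control 1 or AsPC-1 control 3, with adjusted p of up to 0.179. Under ATO, PARP12 was lost without AsPC-1 ATO 2 or BxPC-3 ATO 2, and IFIH1 without replicate 1 or 2 of either ATO group, with adjusted p of up to 0.123.

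**Figure D2:**
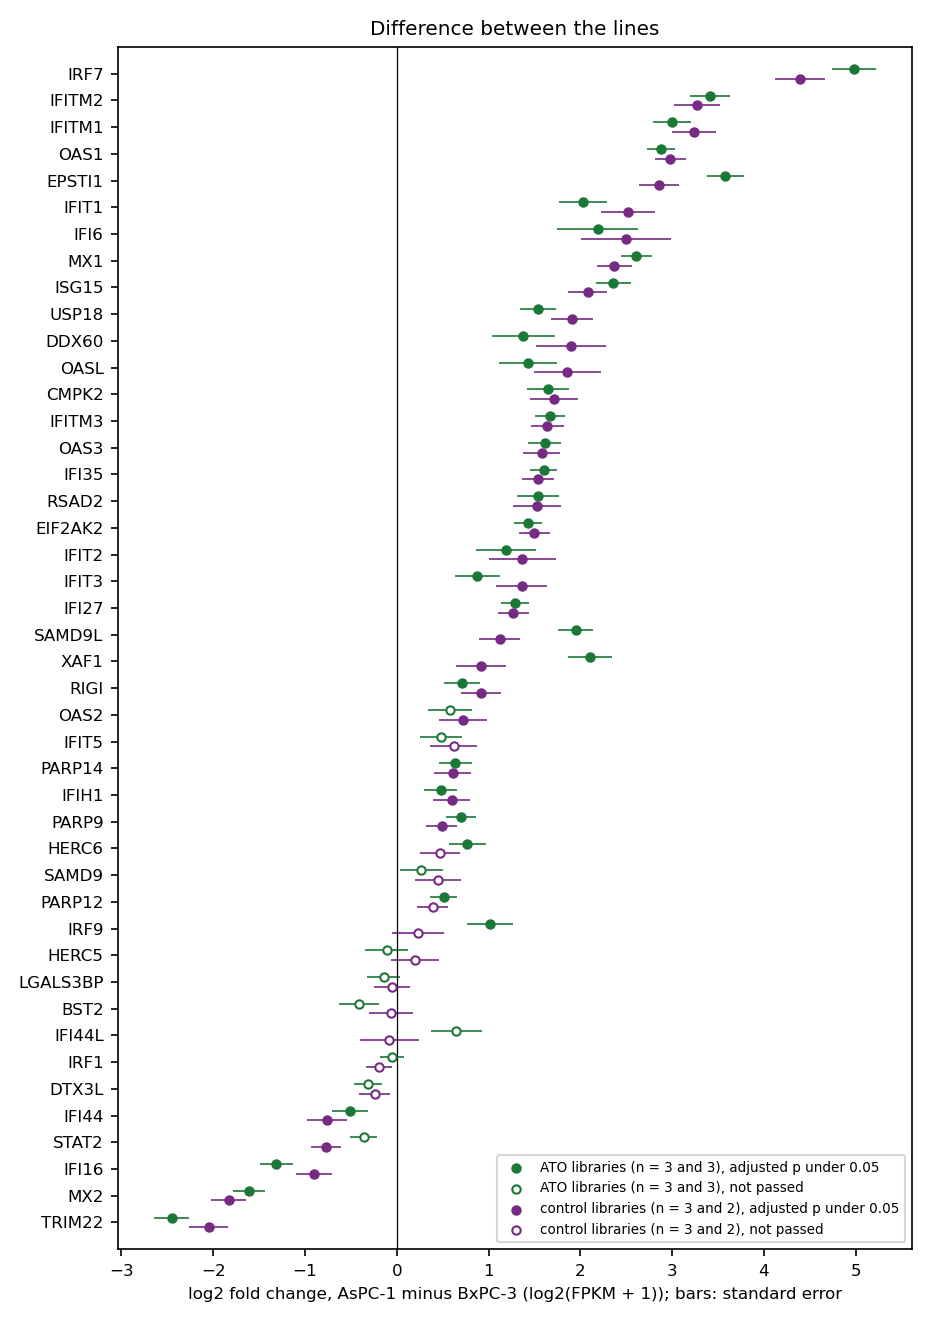
Points are log2 fold changes of AsPC-1 over BxPC-3 for the 44 genes on the log2(FPKM + 1) scale, green for ATO libraries and purple for controls, with bars of 1 standard error and filled points for an adjusted p under 0.05. Most genes lie right of 0, from IRF7 at 4.98 under ATO and 4.39 in controls down to TRIM22 at -2.45 and -2.05.

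Among the transcription factors, IRF7 had by far the widest gap between the lines, and STAT2 had the opposite order. IRF7 (ENSG00000185507), which drives the amplifying phase of the interferon response, had 41.5, 44.4 and 28.2 FPKM in AsPC-1 ATO libraries and 16, 31.2 and 25.2 FPKM in AsPC-1 controls. It had 0.445, 0.126 and 0.102 FPKM in BxPC-3 ATO libraries and 0.180 and 0.136 FPKM in BxPC-3 controls, which rest on 7 to 27 reads per library. The groups of the lines lay far apart, with a log2 fold change of 4.98 (SE 0.24, limma adjusted p = 7.32e-08) under ATO and 4.39 (SE 0.27, limma adjusted p = 5.98e-07) in controls, a scale that understates the change of low genes. STAT2 (ENSG00000170581), a subunit of the complex that carries the interferon signal, was lower in AsPC-1. It had 14.2, 14.9 and 16.6 FPKM in AsPC-1 ATO libraries and 11, 14.9 and 11.6 FPKM in AsPC-1 controls, against 21.4, 19.3 and 18.7 FPKM in BxPC-3 ATO libraries and 24.6 and 19.3 FPKM in BxPC-3 controls. No AsPC-1 library reached a BxPC-3 library. It passed in controls (log2 fold change -0.77, SE 0.16, limma adjusted p = 0.00308) and missed the threshold under ATO (log2 fold change -0.36, limma adjusted p = 0.0541), where quantile normalization gave -0.59 with an adjusted p of 0.00468.

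IRF9 and IRF1 had smaller differences. IRF9 (ENSG00000213928), the DNA-binding partner of STAT2, had 3.91, 6.69 and 6.69 FPKM in AsPC-1 ATO libraries and 2.66, 4.35 and 3.37 FPKM in AsPC-1 controls. It had 3.54, 1.78 and 1.74 FPKM in BxPC-3 ATO libraries and 3.25 and 2.32 FPKM in BxPC-3 controls. The lines did not overlap under ATO, where IRF9 was higher in AsPC-1 (log2 fold change 1.02, limma adjusted p = 0.00512), and did overlap in controls (log2 fold change 0.23, limma adjusted p = 0.537). IRF1 (ENSG00000125347), a factor induced by interferon gamma above all, lay between 4.13 and 5.06 FPKM in the 6 AsPC-1 libraries and between 4.35 and 5.91 FPKM in the 5 BxPC-3 libraries. It passed in neither comparison, with log2 fold changes of -0.05 under ATO and -0.19 in controls.

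In the ISG15 group, the modifier and its protease differed between the lines, and HERC5 did not pass. ISG15 (ENSG00000187608), a ubiquitin-like protein that is attached to other proteins, had 80.2, 78.1 and 61.1 FPKM in AsPC-1 ATO libraries and 53.6, 50.6 and 54.4 FPKM in AsPC-1 controls. It had 12.3, 10.6 and 18 FPKM in BxPC-3 ATO libraries and 13.3 and 10.4 FPKM in BxPC-3 controls. The lowest AsPC-1 library was well above the highest BxPC-3 library, and the log2 fold changes were 2.36 (SE 0.19, limma adjusted p = 2.54e-06) under ATO and 2.08 (SE 0.21, limma adjusted p = 2.16e-05) in controls. USP18, which removes ISG15 and damps interferon receptor signaling, averaged 5.55 ± 0.662 FPKM in AsPC-1 ATO libraries against 1.26 ± 0.416 FPKM in ATO libraries of BxPC-3 (SD, n = 3 each). HERC5, a ligase that attaches ISG15, averaged 1.10 ± 0.440 FPKM in AsPC-1 ATO libraries and 1.25 ± 0.393 FPKM in ATO libraries of BxPC-3 (SD, n = 3 each), with a log2 fold change of -0.11 (limma adjusted p = 0.71). HERC6, a relative of HERC5, was higher in AsPC-1 under ATO, with a log2 fold change of 0.77 (limma adjusted p = 0.00705), and missed the threshold in controls at 0.47.

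Of the 5 sensors of foreign nucleic acid, 4 were higher in AsPC-1 and 1 was lower, in both comparisons. EIF2AK2, the kinase PKR that stops translation when it binds viral RNA, averaged 19.2 ± 2.80 FPKM in AsPC-1 ATO libraries against 6.44 ± 0.644 FPKM in ATO libraries of BxPC-3 (SD, n = 3 each). The lines differed by a log2 fold change of 1.43 (SE 0.15, limma adjusted p = 1.61e-05) under ATO and 1.5 (SE 0.17, limma adjusted p = 4.05e-05) in controls. RIGI and IFIH1, helicases that detect viral RNA in the cytoplasm, had smaller differences, 0.71 and 0.48 under ATO and 0.92 and 0.60 in controls. DDX60, a helicase linked to RIGI signaling, had log2 fold changes of 1.38 under ATO and 1.90 in controls. IFI16 (ENSG00000163565), a sensor of DNA, was the member of this group with the opposite order. It had 14.4, 12.3 and 10.1 FPKM in AsPC-1 ATO libraries and 18.1, 12.3 and 12.3 FPKM in AsPC-1 controls. In BxPC-3 the values were 28.2, 33.1 and 33.8 FPKM in ATO libraries and 24.7 and 29.5 FPKM in controls. Every BxPC-3 library was above every AsPC-1 library, with log2 fold changes of -1.31 (SE 0.18, limma adjusted p = 0.000109) under ATO and -0.90 (SE 0.20, limma adjusted p = 0.00386) in controls.

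The IFIT proteins bind viral RNA and hold back its translation, and 3 of the 4 were higher in AsPC-1 in both comparisons. IFIT1 (ENSG00000185745) had 10.2, 6.88 and 5.59 FPKM in AsPC-1 ATO libraries and 12.9, 6.49 and 7.08 FPKM in AsPC-1 controls. It had 0.760, 1.07 and 1.34 FPKM in BxPC-3 ATO libraries and 0.728 and 0.560 FPKM in BxPC-3 controls. The lines were well apart, at log2 fold changes of 2.03 (SE 0.26, limma adjusted p = 6.68e-05) under ATO and 2.52 (SE 0.29, limma adjusted p = 4.91e-05) in controls. IFIT3 (ENSG00000119917), the partner that stabilizes IFIT1, had 15.1, 10.9 and 9.43 FPKM in AsPC-1 ATO libraries and 16.2, 9.20 and 12.5 FPKM in AsPC-1 controls. In BxPC-3 the levels were 4.23, 5.78 and 7.98 FPKM in ATO libraries and 4.69 and 3.72 FPKM in controls. Its lines did not overlap, though the gap under ATO was narrow, and log2 fold changes were 0.88 under ATO and 1.36 in controls. IFIT2 had log2 fold changes of 1.19 and 1.37. IFIT5 passed in neither, at 0.48 (limma adjusted p = 0.0982) under ATO and 0.62 (limma adjusted p = 0.0774) in controls.

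The IFITM proteins, membrane proteins that block viral fusion, were the 3 of these genes with the highest mean levels in AsPC-1. IFITM1, IFITM2 and IFITM3 together held 35.9%, 33.1% and 35.4% of the summed level of the 44 genes in AsPC-1 ATO libraries and 27.1%, 34.6% and 37.7% in AsPC-1 controls. They held 14.6%, 17.6% and 11.8% in BxPC-3 ATO libraries and 11.4% and 14.8% in BxPC-3 controls. IFITM2 and IFITM3 are close paralogs, and how the authors' counting divided reads between them is not stated, so the split between these 2 is less certain than their sum. IFITM1 is more distinct in sequence. IFITM1 (ENSG00000185885) had 150, 113 and 114 FPKM in AsPC-1 ATO libraries and 104, 122 and 107 FPKM in AsPC-1 controls, against 12.6, 19 and 13.4 FPKM in BxPC-3 ATO libraries and 8.21 and 14.1 FPKM in BxPC-3 controls. IFITM3 (ENSG00000142089) had 148, 138 and 120 FPKM in AsPC-1 ATO libraries and 101, 115 and 132 FPKM in AsPC-1 controls, against 41.4, 46.6 and 37 FPKM in BxPC-3 ATO libraries and 32.3 and 40.9 FPKM in BxPC-3 controls. The lines lay far apart without overlap. The log2 fold changes were 3 for IFITM1, 3.41 for IFITM2 and 1.67 for IFITM3 under ATO, and 3.24, 3.27 and 1.64 in controls, with limma adjusted p at or below 3.22e-05 in each.

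BST2 (ENSG00000130303), or tetherin, which holds budding virus at the cell surface, did not pass between the lines. It had 58.1, 34.8 and 32.5 FPKM in AsPC-1 ATO libraries and 85.5, 66.8 and 60.4 FPKM in AsPC-1 controls. In BxPC-3 it had 47.6, 57.9 and 57.6 FPKM in ATO libraries and 68.2 and 78.2 FPKM in controls. The lines overlapped in both comparisons. BST2 passed in neither, at log2 fold changes of -0.41 (limma adjusted p = 0.125) under ATO and -0.06 (limma adjusted p = 0.866) in controls, and under ATO it passed after quantile normalization (-0.65, adjusted p = 0.0168), with voom (-0.64, adjusted p = 0.0467) and without the library AsPC-1 ATO 1 (-0.67, adjusted p = 0.00738).

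The OAS enzymes make the second messenger that activates RNase L, and OAS1 carried most of their difference. OAS1 (ENSG00000089127) had 61.9, 58 and 54.5 FPKM in AsPC-1 ATO libraries and 64.1, 70.1 and 52.8 FPKM in AsPC-1 controls. It had 8.5, 5.80 and 7.04 FPKM in BxPC-3 ATO libraries and 7.30 and 6.61 FPKM in BxPC-3 controls. The lowest AsPC-1 library, at 52.8 FPKM, was far above the highest BxPC-3 library, at 8.5 FPKM, with log2 fold changes of 2.88 (SE 0.15, limma adjusted p = 1.32e-07) under ATO and 2.98 (SE 0.17, limma adjusted p = 3.52e-07) in controls. OAS3 (ENSG00000111331) had 17.1, 19.6 and 16.1 FPKM in AsPC-1 ATO libraries and 21, 15 and 14.6 FPKM in AsPC-1 controls, against 5.98, 3.89 and 5.61 FPKM in BxPC-3 ATO libraries and 4.66 and 5.18 FPKM in BxPC-3 controls. OASL, an OAS relative without the enzyme activity, had log2 fold changes of 1.43 under ATO and 1.86 in controls. OAS2 was the closest of the family, at 0.58 under ATO (limma adjusted p = 0.0542) and 0.72 in controls (limma adjusted p = 0.0445).

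The MX GTPases, which trap viral nucleoproteins and capsids, differed in opposite directions. MX1 (ENSG00000157601) had 7.38, 7.71 and 5.67 FPKM in AsPC-1 ATO libraries and 7.01, 5.16 and 4.27 FPKM in AsPC-1 controls. It had 0.206, 0.263 and 0.404 FPKM in BxPC-3 ATO libraries and 0.231 FPKM in each of the BxPC-3 controls. MX2 (ENSG00000183486) had 1.22, 1.43 and 0.800 FPKM in AsPC-1 ATO libraries and 0.913, 0.823 and 0.563 FPKM in AsPC-1 controls, against 6.81, 4.77 and 5.06 FPKM in BxPC-3 ATO libraries and 5.10 and 5.43 FPKM in BxPC-3 controls. Neither gene had overlapping lines. MX1 rested on 38 to 91 reads per BxPC-3 library, and the log2(FPKM + 1) scale understates the change of low genes. Under ATO the ratio of mean FPKM, AsPC-1 over BxPC-3, was 23.8 for MX1 and 0.207 for MX2. MX1 was higher in AsPC-1 by a log2 fold change of 2.61 (SE 0.17, limma adjusted p = 6.89e-07) under ATO and 2.37 (SE 0.19, limma adjusted p = 4.38e-06) in controls, and MX2 had -1.61 (SE 0.17, limma adjusted p = 1.59e-05) and -1.83 (SE 0.19, limma adjusted p = 2.13e-05).

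**Figure D3:**
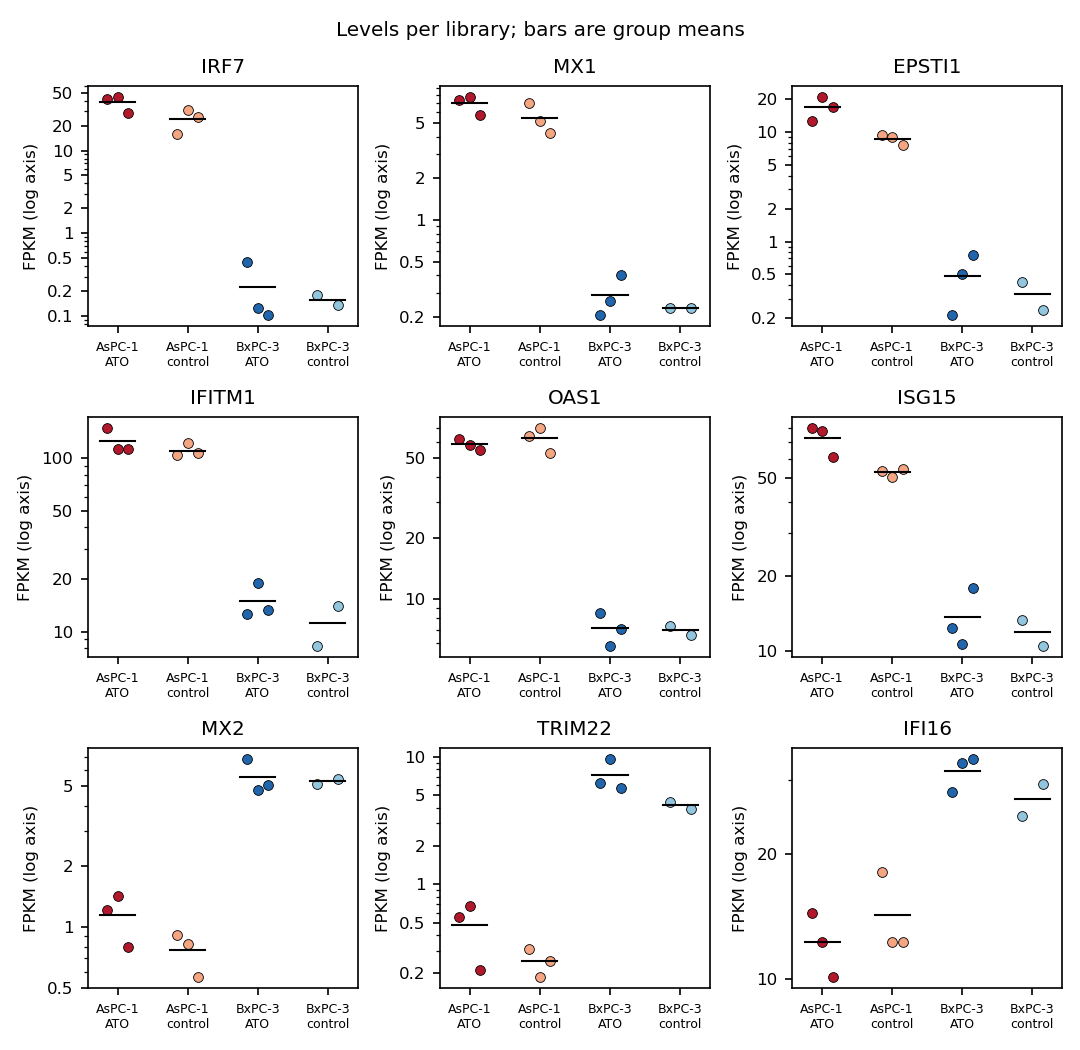
Each panel gives FPKM of 1 gene on a log axis, with a point per library, bars at the group means, and AsPC-1 ATO, AsPC-1 control, BxPC-3 ATO and BxPC-3 control from left to right. IRF7, MX1, EPSTI1, IFITM1, OAS1 and ISG15 are higher in every AsPC-1 library, while MX2, TRIM22 and IFI16 are higher in every BxPC-3 library.

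The proteins of ADP-ribosylation and their ligase partner had small differences. PARP9 and PARP14, which regulate interferon signaling, were higher in AsPC-1 in both comparisons, at log2 fold changes of 0.70 and 0.64 under ATO and 0.49 and 0.61 in controls. PARP12, a zinc finger member of the same family, passed under ATO at 0.51 (limma adjusted p = 0.0136) and not in controls at 0.39 (limma adjusted p = 0.0888). DTX3L, the ubiquitin ligase that pairs with PARP9, passed in neither, at -0.31 (limma adjusted p = 0.106) and -0.24 (limma adjusted p = 0.291).

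Among the other effectors, 8 of 13 were higher in AsPC-1 in each comparison. EPSTI1 (ENSG00000133106), a gene first described as induced by stroma in epithelial cells, had 12.7, 21 and 17.1 FPKM in AsPC-1 ATO libraries and 9.44, 8.95 and 7.64 FPKM in AsPC-1 controls. It had 0.211, 0.508 and 0.747 FPKM in BxPC-3 ATO libraries and 0.426 and 0.234 FPKM in BxPC-3 controls. These BxPC-3 values rest on 24 to 96 reads per library, where the scale of the log2 fold changes understates the difference. The lines lay far apart, and log2 fold changes were 3.58 (SE 0.20, limma adjusted p = 1.62e-07) under ATO and 2.86 (SE 0.22, limma adjusted p = 2.69e-06) in controls. IFI6 (ENSG00000126709), a small protein with antiviral activity, had 51.6, 41 and 22.9 FPKM in AsPC-1 ATO libraries and 68.2, 38 and 29.6 FPKM in AsPC-1 controls. In BxPC-3 it had 4.21, 5.68 and 15.1 FPKM in ATO libraries and 7.04 and 6.39 FPKM in controls. The lines did not overlap, but the libraries of a group differed widely, and the standard errors of its log2 fold changes of 2.19 and 2.5 were 0.44 and 0.49. IFI27 (ENSG00000165949), a small mitochondrial protein, had 41.4, 40.7 and 30.6 FPKM in AsPC-1 ATO libraries and 38.1, 38 and 31.7 FPKM in AsPC-1 controls. It had 13.1, 14.5 and 16.4 FPKM in BxPC-3 ATO libraries and 15.4 and 13.2 FPKM in BxPC-3 controls, and passed at log2 fold changes of 1.29 and 1.27.

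Enzymes of nucleotide metabolism rested on few reads in BxPC-3. RSAD2 (ENSG00000134321), or viperin, an enzyme that makes a chain-ending nucleotide, had 3.19, 2.11 and 1.38 FPKM in AsPC-1 ATO libraries and 2.97, 1.54 and 1.52 FPKM in AsPC-1 controls. In BxPC-3 it rested on 4, 4 and 21 reads in ATO libraries and on 2 reads in each control, so its difference passed the test but its size is not read here. CMPK2, a nucleotide kinase of the mitochondrion, had between 11 and 27 reads per BxPC-3 library and averaged 2.82 ± 0.675 FPKM in AsPC-1 ATO libraries against 0.213 ± 0.0942 FPKM in ATO libraries of BxPC-3 (SD, n = 3 each). CMPK2 passed at a log2 fold change of 1.65 (SE 0.23) under ATO and 1.71 (SE 0.26) in controls. That scale understates the difference of a gene this low in BxPC-3.

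TRIM22 (ENSG00000132274), an antiviral ubiquitin ligase, had the lowest log2 fold change of the 44 genes. It had 0.551, 0.678 and 0.213 FPKM in AsPC-1 ATO libraries and 0.313, 0.186 and 0.249 FPKM in AsPC-1 controls, on 16 to 52 reads. Levels in BxPC-3 were 6.24, 9.62 and 5.67 FPKM in ATO libraries and 4.44 and 3.90 FPKM in controls. All BxPC-3 libraries were above all AsPC-1 libraries, with log2 fold changes of -2.45 (SE 0.19, limma adjusted p = 2.16e-06) under ATO and -2.05 (SE 0.21, limma adjusted p = 2.65e-05) in controls. IFI44 was also lower in AsPC-1, averaging 30.3 ± 2.77 FPKM in AsPC-1 ATO libraries against 44.2 ± 9.85 FPKM in ATO libraries of BxPC-3 (SD, n = 3 each), at log2 fold changes of -0.51 and -0.76. Both calls were close to the threshold: that under ATO was lost without any single ATO library other than BxPC-3 ATO 2 (adjusted p 0.0594 to 0.177), and that in controls without AsPC-1 control 2, AsPC-1 control 3 or BxPC-3 control 1 (adjusted p 0.0507 to 0.173). LGALS3BP (ENSG00000108679), a secreted glycoprotein, had 48.6, 48.6 and 42.2 FPKM in AsPC-1 ATO libraries and 41.2, 48.1 and 53.3 FPKM in AsPC-1 controls. Levels in BxPC-3 were 64.7, 42.5 and 48.5 FPKM in ATO libraries and 42.7 and 56.4 FPKM in controls. The lines overlapped, and it passed in neither comparison, along with IFI44L, IFIT5, IRF1, BST2, HERC5, SAMD9 and DTX3L.

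In AsPC-1 tumors, none of these genes passed the test between ATO and control. limma on the 6 AsPC-1 libraries called 0 of 15287 genes, 0% of the background, and 0 of the 42 members tested; MX2 and TRIM22 were under the filter of 1 FPKM in at least 3 libraries. With voom, 19 of 15726 genes passed, and 0 of the 44. At an unadjusted p under 0.05, 9 members, or 21.4%, were higher with ATO, where 15% of all genes were, and 1, or 2.38%, was lower, where 6.02% were. The 3 ATO libraries were all above the 3 controls for 7 members, or 16.7%, against 17.4% of all genes, and all below for 1, against 8.1%. The share without overlap was thus near the background. The median log2 fold change was 0.10 for the members and 0.12 for all genes, 0.06 and -0.02 after quantile normalization, and -0.03 and -0.04 with voom. The median of all genes thus moved by over 0.1 with the scaling, and values as deposited are to be read against 0.12.

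The smallest unadjusted p among the genes higher with ATO belonged to SAMD9L, XAF1, EPSTI1 and IFI44L. SAMD9L (ENSG00000177409), a growth-restraining antiviral protein, had 12.3, 16.3 and 14.2 FPKM in AsPC-1 ATO libraries and 8.73, 7.24 and 7.48 FPKM in AsPC-1 controls. XAF1 (ENSG00000132530), a partner of the apoptosis inhibitor XIAP, had 11.9, 20 and 15.9 FPKM in ATO libraries and 6.17, 8.68 and 5.46 FPKM in controls. For both, and for EPSTI1, every ATO library was above every control, and IFI44L overlapped. The log2 fold changes were 0.79 (SE 0.16, limma adjusted p = 0.11) for SAMD9L, 1.12 (SE 0.23, limma adjusted p = 0.11) for XAF1, 0.87 (SE 0.20, limma adjusted p = 0.138) for EPSTI1 and 0.85 (SE 0.29, limma adjusted p = 0.205) for IFI44L. ISG15, IFI35, PARP9 and IRF1 also had all ATO libraries above all controls, at log2 fold changes of 0.45, 0.29, 0.43 and 0.15, of which that of IRF1 was -0.02 after quantile normalization and with voom. BST2 averaged 41.8 ± 14.2 FPKM with ATO and 70.9 ± 13 FPKM in controls (SD, n = 3 each) and was the gene with all ATO libraries below, at -0.78 (SE 0.25, limma adjusted p = 0.198). DDX60, DTX3L and IFI16 had the next smallest p in the lower direction, at -0.28, -0.19 and -0.19, and overlapped.

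In BxPC-3 tumors, none of these genes passed the test between ATO and control either. limma on the 5 libraries called 0 of 15657 genes, 0% of the background, and 0 of the 39 members tested, with a smallest adjusted p of 0.889 among them. MX1, IRF7, RSAD2, CMPK2 and EPSTI1 were under the filter of 1 FPKM in at least 2 libraries, and voom also called 0 genes. At an unadjusted p under 0.05, 1 member was higher with ATO, where 2.45% of all genes were, and 1 was lower, where 2.63% were. All ATO libraries were above all controls for 7 tested members, or 17.9%, against 12.1% of all genes, and below for 1, against 9.29%. The median log2 fold change was 0.16 for the members and -0.01 for all genes, and 32 of the 39 were above 0, against 48.5% of all genes. With the library labelled BxPC-3 control 3 kept, that median was -0.06.

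The member higher at an unadjusted p was TRIM22, at 7.18 ± 2.14 FPKM with ATO (SD, n = 3) and 4.17 ± 0.384 FPKM in controls (SD, n = 2), a log2 fold change of 0.63 (SE 0.23, limma adjusted p = 0.889). OAS2 had 4.56, 5.16 and 6.81 FPKM with ATO and 3.84 and 4.04 FPKM in controls, with no overlap and a log2 fold change of 0.38. PARP14 and USP18 had log2 fold changes of 0.38 and 0.45, with overlapping groups. BST2 was the lower one, at 54.4 ± 5.87 FPKM with ATO (SD, n = 3) and 73.2 ± 7.02 FPKM in controls (SD, n = 2), a log2 fold change of -0.42 (SE 0.16, limma adjusted p = 0.889). IRF9, STAT2 and DTX3L had log2 fold changes of -0.21, -0.13 and -0.12 with overlapping groups.

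Of the 37 genes tested in both lines, BST2, 2.7%, had all ATO libraries below the controls in each line, as did 0.697% of the 12907 genes tested in both lines. IFI35 and PARP9, 5.41%, had all ATO libraries above, as did 0.968% of those genes. These counts of 1 and 2 genes are small, and no test of them was made. IFI35, an interferon-induced leucine zipper protein, had 16.3, 16.4 and 15.9 FPKM in AsPC-1 ATO libraries and 14.5, 10.7 and 14.1 FPKM in AsPC-1 controls. In BxPC-3 it had 4.35, 5.74 and 4.04 FPKM in ATO libraries and 4.02 and 3.63 FPKM in controls. PARP9 had 8.83, 12 and 9.8 FPKM in AsPC-1 ATO libraries and 8.78, 6.18 and 6.96 FPKM in AsPC-1 controls. For both genes the gap was narrow in each line. The lack of overlap was read from values as deposited, and other scalings were not tested for it. With voom, the AsPC-1 log2 fold changes were 0.13 for IFI35, 0.29 for PARP9 and -0.99 for BST2, in place of 0.29, 0.43 and -0.78. None of the changes of these genes passed the adjusted test.

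**Figure D4:**
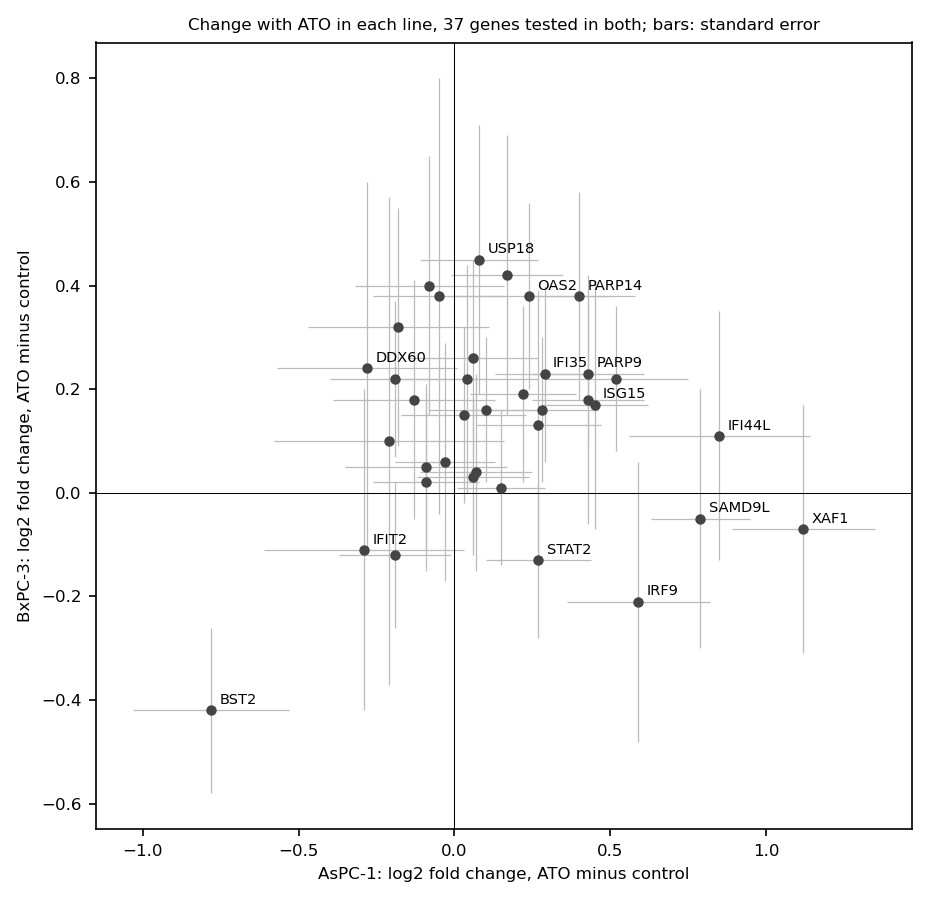
Each point is 1 of the 37 genes tested in both lines, with the log2 fold change of ATO over control in AsPC-1 on the x axis and in BxPC-3 on the y axis, and bars of 1 standard error. No gene passed the adjusted test in either line; XAF1 and SAMD9L lie far right near 0 on the y axis, and BST2 lies below 0 on both.

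Whether ATO acted differently in the lines was tested by the line by treatment term of the model of 11 libraries. limma called 0 of 16600 genes, 0% of the background, with 2577 genes at an unadjusted p under 0.05, and voom also called 0. Among the 44 genes, 3 had an unadjusted p under 0.05 with a larger change in AsPC-1, where 11.2% of all genes did, and 0 in the other direction, where 4.37% did. They were XAF1 with a difference of 1.19 (SE 0.36, limma adjusted p = 0.232), SAMD9L with 0.84 (SE 0.29, limma adjusted p = 0.253) and EPSTI1 with 0.72 (SE 0.29, limma adjusted p = 0.297) on the log2(FPKM + 1) scale. EPSTI1 was at 0.211 to 0.747 FPKM in the 5 BxPC-3 libraries compared, under the filter of that line, where this scale compresses any change, so no difference between the lines is read from it. With voom on the recovered reads, its difference was 0.29 (adjusted p = 0.816). Without the library BxPC-3 ATO 1, XAF1 at 1.41 (adjusted p = 0.049) and SAMD9L at 1.05 (adjusted p = 0.0444) passed. The share of all genes that passed in that fit is not given here, so these calls are not read as particular to these genes. BxPC-3 ATO 1 held 4.26 FPKM of XAF1, against 2.35 and 2.23 FPKM in the other BxPC-3 ATO libraries. For SAMD9L it held 4.29 FPKM, against 2.75 and 2.06 FPKM. The median difference was -0.02 over the 44 genes and 0.09 over all genes.

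Libraries of the same group differed in these genes, in AsPC-1 and in BxPC-3. The library AsPC-1 control 1 had the highest FPKM of its group for 31 of the 44 genes, while it was highest for 30% of all genes tested in the line. It reached at least 1.5 times the higher of the other AsPC-1 controls for 11 of the 44 genes, 25%, against 4.63% of all genes. These 11 were IFI6, IFIT1, IFIT2, IFIT5, OAS2, RSAD2, HERC5, HERC6, DDX60, SAMD9 and CMPK2. DDX60, for example, had 22.3 FPKM there and 10.9 and 9.71 FPKM in the other controls, against 12.9, 9.41 and 10.5 FPKM in AsPC-1 ATO libraries. Without AsPC-1 control 1, the log2 fold change of DDX60 with ATO was 0.07 in place of -0.28. AsPC-1 ATO 1 was highest of its group for 24 of the 44 genes, against 27.1% of all genes, and AsPC-1 ATO 3 was lowest for 27, against 21.1%.

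In BxPC-3 the library with the highest interferon-stimulated genes was ATO 3. It was the highest of its group for 21 of the 44 genes, against 21.3% of all genes. It reached at least 1.5 times the higher of the other ATO libraries for 6, 13.6%, against 1.71% of all genes. These were IFI6, IFI44L, MX1, OASL, RSAD2 and DDX60. OASL had 7.65 FPKM there and 2.83 and 2.39 FPKM in the other ATO libraries, against 3.34 and 2.18 FPKM in BxPC-3 controls. DDX60, IFI6 and RSAD2 were raised in both AsPC-1 control 1 and BxPC-3 ATO 3, 27.3% of the 11 and 50% of the 6. Of these, RSAD2 rested on 4, 4 and 21 reads in BxPC-3 ATO libraries. How many of all genes were raised in both is not given here, so the overlap is not read as particular to the 44 genes. BxPC-3 ATO 1 was at least 1.5 times the others for IRF7, IRF9, XAF1 and SAMD9L, 9.09% of the 44, and for 18.7% of all genes. Groups of 3 libraries are too small for a test of a single library, and what set these libraries apart was not tested.

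**Figure D5:**
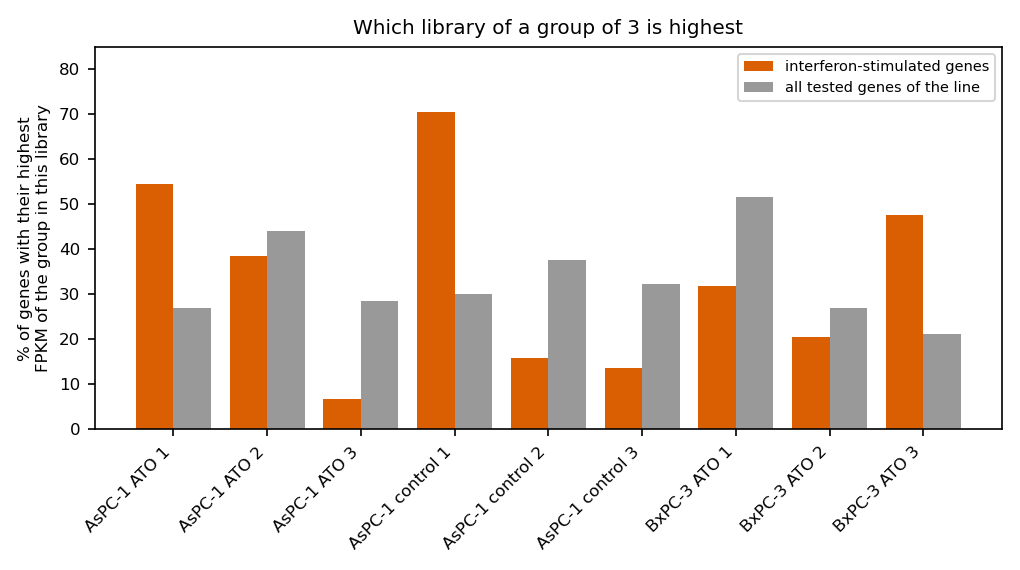
Bars give the percentage of genes that have their highest FPKM of a group of 3 in the library named, orange for the 44 interferon-stimulated genes and grey for all tested genes of the line. Orange stands at 70.5% and grey at 30% for AsPC-1 control 1, and at 47.7% and 21.3% for BxPC-3 ATO 3.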

How the data were processed

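RNA-seq covered 12 tumor libraries; per the labels' protocols, a SMARTer mRNA kit was used on total RNA. The authors deposited 1 table of FPKM values per line; the unit is not stated and was read from the values, which are whole reads scaled by a library constant and a gene length. The submitters' processing notes name the builds GRCm38, mm10 and hg38 with no role, and the labels list the mouse as organism, while the identifiers are human. Aligner, counting tool and annotation: not given in the sources used here.

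Reads were recovered from the FPKM steps for 99.88% of genes in each table, to within 1e-06 reads (Python 3.11.15; numpy 2.4.6; pandas 2.3.3). Their sum was set against the depth that the constant implies. It was 105% to 118% of that depth in AsPC-1 ATO libraries and 86.3% to 88.7% in AsPC-1 controls. In the 5 BxPC-3 libraries used it was 72.6% to 84.5%. The constant thus did not follow depth, and FPKM as deposited are not on a common scale of depth. In 1 cell a space within a number was removed.

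The tests used limma 3.58.1 (R 4.3.3; eBayes, trend on) on log2(FPKM + 1), per line and over 11 libraries in 1 model of 4 groups, on genes of at least 1 FPKM in 3 libraries (2 in BxPC-3), with p-values adjusted over all genes. The design had allowed for counts; as the tables hold FPKM, the test for normalized values was used. The fits were tested on simulated data. Alternatives were a pseudocount of 0.1, no filter, a filter of 5 FPKM, no trend, quantile normalization, voom on those reads with median-ratio scaling, a replicate block, the library labelled BxPC-3 control 3 kept, and each library left out; voom with the block was added after seeing the data.

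The members and lists were chosen with earlier results of these data known. Named with values were a panel of 16, the 3 highest and 3 lowest genes per line, and per comparison up to 12 of the largest changes called or, with none, the 4 smallest unadjusted p in each direction; IFI35, PARP9 and the genes of the paragraphs on single libraries were chosen after their values were seen. Same-numbered libraries correlated by 0.0809 to 0.341 in AsPC-1 and 0.0538 to 0.139 in BxPC-3, and the numbers were not taken to pair them. The lists of other pathways and cell types, human promoters and proteins were not analysed here. FPKM levels rest on read counts whose error covers counting only.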

Additional observations from a re-analysis of the deposited data

Results flagged for a closer look

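The library labelled BxPC-3 control 3 was left out of the main comparisons and kept only in an alternative. It held a summed level of 911 FPKM over the 44 interferon-stimulated genes. The other BxPC-3 controls held 414 and 430 FPKM, and AsPC-1 controls 995, 920 and 909 FPKM. The signal stood above the level of both BxPC-3 controls used. The library labelled BxPC-3 control 3 had 26.3 FPKM of IRF7, 4.94 FPKM of MX1 and 113 FPKM of IFITM1, values within the AsPC-1 range. It had 0.914 FPKM of MX2 and 0.350 FPKM of TRIM22, genes that were high in the other BxPC-3 libraries. No group had enough libraries for a test of a single library within it.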

How the results depend on the processing

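Of 1158 values recomputed under alternatives, 1080 were labelled as the same. For a single gene this meant the same direction and side of the threshold, and for a median a move of less than the spread. A count of genes called could differ within a set factor of the main count. Keeping the library labelled BxPC-3 control 3 changed most: 0 members passed between the lines in controls, with a median log2 fold change of 0.62, and the medians were -0.06 for ATO in BxPC-3 and 0.31 for the line by treatment term. Under it STAT2 had 0.06, USP18 -0.06 and DTX3L 0.01 for ATO in BxPC-3, BST2 0.16 and LGALS3BP 0.01 between lines in controls, and IFIT1 0.26 for the line by treatment term, all reversed. How many of all genes passed between lines in controls with that library kept is not given here. The median between lines in controls was 1.21 with a pseudocount of 0.1 and 1.21 with voom. Under ATO it was 1.32 with a pseudocount of 0.1 and 0.91 after quantile normalization, and the median line by treatment term was -0.23 with voom; the cause was not tested.

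Leaving out each library in turn gave 26 to 30 calls between lines in controls (medians 0.97 to 1.18) and 31 to 35 under ATO (1.01 to 1.22). It gave 0 calls for ATO in either line (medians 0.03 to 0.22 in AsPC-1, 0.06 to 0.19 in BxPC-3) and 0 to 2 for the line by treatment term (-0.08 to 0.09). These are counts of the members, and the share of all genes called in the same fits is not given here. Small differences changed sign: for ATO, DDX60 ranged from -0.49 to 0.07 in AsPC-1 and STAT2 from -0.30 to 0.03 in BxPC-3. Between lines in controls, BST2 ranged from -0.20 to 0.05, HERC5 from -0.01 to 0.38 and LGALS3BP from -0.25 to 0.14. Between lines under ATO, IRF1 ranged from -0.15 to 0.03, HERC5 from -0.27 to 0.03 and LGALS3BP from -0.27 to 0.03.

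With a replicate block, 5 of 42 members, or 11.9%, passed for ATO in AsPC-1, where 1193 of 15287 genes, or 7.8%, passed: XAF1, EPSTI1, IFI44L and SAMD9L were higher and BST2 lower, with adjusted p between 0.0336 and 0.0484. With voom and the replicate block 7 of 44, or 15.9%, passed, adding IFIT2 and DDX60, both lower, where 21.8% of all genes passed. The block changed no call of these genes in BxPC-3 or in the line by treatment term. As a hint from the data and not the design, deviations from the group mean were correlated across genes. Those of AsPC-1 ATO 1 and ATO 3 correlated best with those of the control of their number (0.341 and 0.0809). AsPC-1 ATO 2 had 0.227 with control 3 and 0.209 with control 2.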
